A study of Homo sapiens with 4 samples.

Results

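The 8 genes described here are 7 genes of granule proteins of neutrophil and monocyte precursors and MS4A3, which codes for a membrane protein of the same precursors. The granule genes are the serine proteases ELANE, PRTN3 and CTSG, their relative AZU1, the peroxidase MPO, the lysozyme LYZ and the ribonuclease RNASE2. They were chosen by their CPM (counts per 1000000 counts of a library) and their periplocin to DMSO differences in these same libraries, and were taken by symbol from the 20348 genes of the deposited table, where all 8 were found. Their values are therefore a description. K562, a line from chronic myeloid leukemia that carries the BCR-ABL1 fusion, and THP-1, a line from acute monocytic leukemia with a KMT2A fusion, were each cultured with DMSO alone or with periplocin, a cardiac glycoside of Cortex periplocae, at 100 nM, and collected after 72 h. Poly-A RNA of each condition was sequenced as 1 library, so there were 4 libraries and no replicates. The sample titles call the DMSO controls blank.

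Neutrophil and monocyte precursors make most of these granule proteins in a short window around the promyelocyte stage, when the primary or azurophil granules form. The transcripts then decline as the cells mature, while the stored proteins remain. Transcription factors of the C/EBP family, PU.1, RUNX1 and MYB are known to act at the promoters of several of these genes.

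Total counts were between 16381172 and 20622719 per library, and the share on mitochondrial genes ran from 2.07% in K562 periplocin to 5.62% in K562 DMSO. The lines carried the markers of their labels. All 7 erythroid markers, among them GATA1 and the fetal globins, had more than 3 counts in both K562 libraries, with summed levels of 2461 and 9069 CPM against 249 and 241 in THP-1. The transferrin receptor gene TFRC alone gave 246 and 240 CPM of the THP-1 sums. All 8 monocytic markers, among them SPI1 and CSF1R, had more than 3 counts in both THP-1 libraries, with 1048 and 1473 CPM against 47.0 and 25.1 in K562. Changes given below are log2 fold changes of periplocin over DMSO after TMM scaling of the pair of libraries, and a gene was counted as higher or lower when the change was at least 2-fold with at least 10 counts in either library. The intervals are 95% and cover counting error only. No difference has a replicate check, and the members were chosen with these values known, so none was tested. In such bulk RNA, fewer cells that make a transcript and less of it per cell cannot be told apart.

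All 8 genes had their higher DMSO level in THP-1, and only LYZ, MS4A3 and AZU1 had more than 6 counts in K562 DMSO. In DMSO the 8 genes together took 0.276% of all THP-1 counts (0.274% to 0.278%) and 0.00729% of K562 counts (0.00689% to 0.00772%). All 8 were at least 2-fold higher in THP-1 DMSO than in K562 DMSO, where 25.0% of the 13974 genes with enough counts were, and the gap ranged from 4.55-fold for LYZ and 6.73-fold for MS4A3 to 239-fold for AZU1, 1224-fold for PRTN3 and 1525-fold for ELANE. The log2 ratio was 12.23 (9.91 to 17.70) for CTSG and 10.23 (8.74 to 12.57) for RNASE2, which had 1 and 3 counts in K562 DMSO. For MPO, without a count in K562, the THP-1 level was 12.4-fold higher when the K562 library was set to 3 counts. Scaling to total counts in place of TMM moved the median of all genes in this comparison from 0.04 to -0.08 on the log2 scale. The comparison of the lines shares its DMSO libraries with the periplocin comparisons.

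In periplocin the granule genes of THP-1 split. CTSG, PRTN3 and MPO fell past 2-fold and MS4A3 fell 18.7-fold, while AZU1, ELANE, LYZ and RNASE2 stayed within 2-fold. All 8 genes had enough counts in THP-1, 4 were lower and 0 higher, and the background over 13367 genes was 12.3% lower and 9.61% higher. In K562 only 4 of the 8 had enough counts. There MS4A3 and AZU1 were lower and PRTN3 higher, LYZ was within 2-fold, and the background over 12736 genes was 13.0% lower and 10.5% higher. The median change was -0.79 over the 8 genes in THP-1, where the median of all genes was -0.03, and -0.29 over the 4 genes in K562, where it was -0.01. The share of counts on the 8 genes went from 0.276% to 0.191% in THP-1, whereas in K562 it was 0.00729% and 0.00735%, a difference within the intervals.

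**Figure D1:**
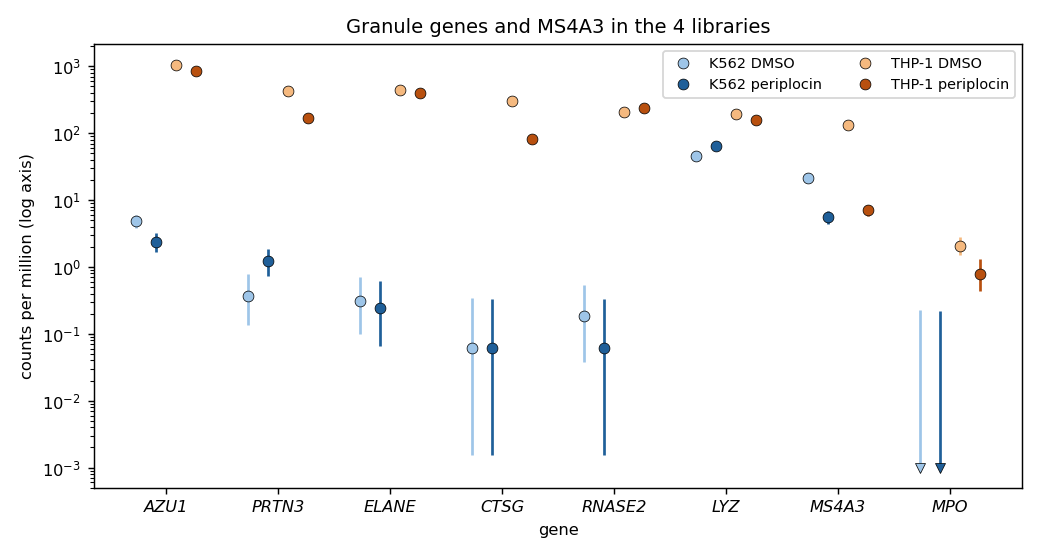
Level of each of the 8 genes in each of the 4 libraries, in CPM on a log axis, with the 95% counting interval as a vertical line; triangles at the bottom mark a count of 0. Both THP-1 points lie above both K562 points for 7 of the 8 genes, while for MS4A3 the THP-1 periplocin point, at 7.00 CPM, lies below K562 DMSO, at 21.3, and close to K562 periplocin, at 5.49.

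AZU1, PRTN3 and ELANE lie side by side on chromosome 19 and held most of the counts of the 8 genes in THP-1. In GENCODE release 29 on GRCh38, AZU1 spans chr19:825097-832018, PRTN3 chr19:840960-848175 and ELANE chr19:851014-856247, all on the plus strand, with 4, 4 and 6 exons in their longest coding transcripts. The 3 genes took 0.192% of THP-1 counts in DMSO (0.190% to 0.194%) and 0.142% in periplocin (0.140% to 0.144%).

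AZU1 codes for azurocidin, also called heparin-binding protein, which has the fold of a serine protease without its activity. It had 21890 counts in THP-1 DMSO (1061 CPM) and 15193 in THP-1 periplocin (857 CPM), a log2 fold change of -0.30 (-0.33 to -0.27). In counts per length of transcript this was the 59th highest level among all genes of THP-1 DMSO and the 56th in periplocin. Of the 50-base stretches of its transcript, 4.99% are also found in other genes. In K562 it had 79 counts in DMSO (4.82 CPM) and 39 in periplocin (2.35 CPM), a log2 fold change of -1.04 (-1.64 to -0.47). The K562 value thus lies just past the 2-fold line, and its interval reaches well short of it.

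PRTN3 codes for proteinase 3, the autoantigen of granulomatosis with polyangiitis. It had 8669 counts in THP-1 DMSO (420.4 CPM) and 3037 in THP-1 periplocin (171 CPM), and fell by 1.28 on the log2 scale (-1.34 to -1.22). K562 had 6 counts in DMSO and 20 in periplocin (0.366 and 1.21 CPM), a log2 fold change of 1.69 whose interval reaches below 2-fold (0.34 to 3.32). The K562 libraries were the 2 lowest, and the lines moved in opposite directions.

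ELANE codes for neutrophil elastase, whose mutations cause cyclic and severe congenital neutropenia. It had 9037 counts in THP-1 DMSO (438 CPM) and 6952 in THP-1 periplocin (392 CPM), a log2 fold change of -0.15 (-0.19 to -0.10). K562 had 5 and 4 counts, so no change was detectable there (-2.68 to 1.87 on the log2 scale).

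The 3 neighbours therefore did not move by the same amount in THP-1. This is seen most directly in the ratio of their counts within a library, which does not depend on scaling. For each PRTN3 count there were 1.04 ELANE counts in DMSO and 2.29 in periplocin, a log2 difference between the genes of 1.13 (1.06 to 1.21). For each AZU1 count there were 0.396 PRTN3 counts in DMSO and 0.200 in periplocin, a log2 difference of -0.99 (-1.05 to -0.92). ELANE and AZU1 kept closer to each other, at 0.413 and 0.458 ELANE counts for each AZU1 count, a log2 difference of 0.15 (0.09 to 0.20). In K562 the PRTN3 to AZU1 ratio moved the other way, from 0.0759 to 0.513, on 6 and 20 PRTN3 counts.

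The genes on either side of the cluster were also read. CFD, which codes for the complement protease factor D and follows ELANE at 8.63 kb between annotated starts, had 273 CPM in THP-1 DMSO and 246 in periplocin, a log2 fold change of -0.14. PLPPR3, which precedes AZU1, had 99.9 and 65.1 CPM (-0.61). Further out, PTBP1, a splicing regulator, had 423 and 546 CPM (0.38), MED16, a Mediator subunit, had 31.0 and 21.8 (-0.50), and R3HDM4 had 39.6 and 31.1 (-0.34). PRTN3 was the only one of these 8 genes past 2-fold in THP-1. In K562 PLPPR3 was also lower, at 35.7 and 16.2 CPM (-1.15).

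**Figure D2:**
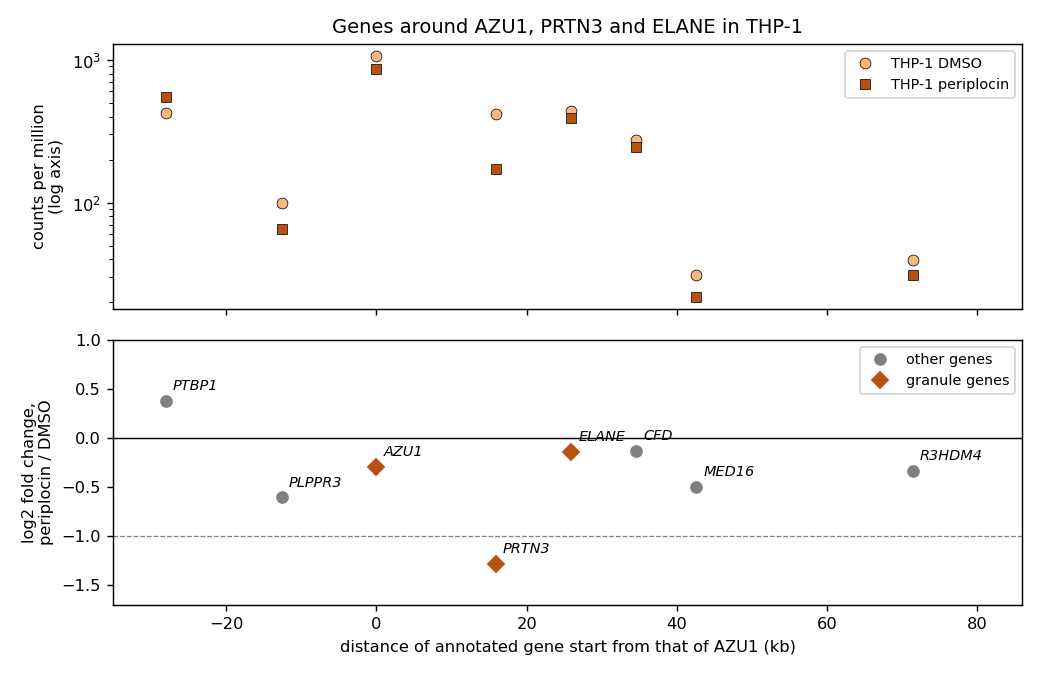
Genes around AZU1, PRTN3 and ELANE in THP-1, by the distance of their annotated starts from that of AZU1 in kb. The upper panel shows CPM on a log axis in the DMSO and periplocin libraries, and the lower panel the log2 fold change, with diamonds for AZU1, PRTN3 and ELANE, grey points for the other genes and a dashed line at a 2-fold fall; only PRTN3, at -1.28, lies below it.

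Upstream sequences are shown for AZU1 and PRTN3 because these neighbours differed in their change in THP-1. Both are the 250 bases before the RefSeq start on GRCh38.p14, plus strand, 5′ to 3′, at chr19:827587-827836 for AZU1 and chr19:840749-840998 for PRTN3. Capitals mark matches on either strand to TTNNGNAA, a C/EBP-type motif, and GAGGAA, a PU.1-type motif.
AZU1: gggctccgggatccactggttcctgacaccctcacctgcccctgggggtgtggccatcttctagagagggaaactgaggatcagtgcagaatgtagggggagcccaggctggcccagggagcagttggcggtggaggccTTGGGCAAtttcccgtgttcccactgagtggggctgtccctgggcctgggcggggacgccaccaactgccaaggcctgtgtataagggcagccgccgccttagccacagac
PRTN3: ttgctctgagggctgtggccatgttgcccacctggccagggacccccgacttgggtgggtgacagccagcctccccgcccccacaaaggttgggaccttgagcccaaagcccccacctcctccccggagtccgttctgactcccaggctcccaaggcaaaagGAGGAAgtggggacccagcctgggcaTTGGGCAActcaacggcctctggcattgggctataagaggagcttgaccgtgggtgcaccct
Each has 1 C/EBP-type match with the same letters, TTGGGCAA, first base 111 bases before the AZU1 start and 62 bases before the PRTN3 start. TATAA begins 31 bases before the start in both. The PU.1-type match, 88 bases before the start, was found in PRTN3 and not in this window of AZU1. Among 35116 RefSeq promoters cut to the same length, 33.2% hold a C/EBP-type match, 23.6% a PU.1-type match and 18.9% TATAA, so these matches are frequent and describe the letters only. ELANE, MPO and LYZ sequences are not shown. The RefSeq starts used here differ from the GENCODE starts given above, most for AZU1.

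CTSG codes for cathepsin G, a chymotrypsin-like protease, and lies on chromosome 14 at chr14:24573522-24576260, minus strand, with 5 exons. It had 6226 counts in THP-1 DMSO (302 CPM) and 1458 in periplocin (82.3 CPM), and fell by 1.86 on the log2 scale (-1.95 to -1.78). Both K562 libraries had 1 count, which is under the floor of 3 counts, so no change can be given there. It fell further than PRTN3 in THP-1, with a log2 difference between them of 0.58 (0.48 to 0.68). Its neighbours at this locus, the mast cell chymase CMA1 and the granzymes GZMH and GZMB, were at 0 counts in all 4 libraries. The flanking genes KHNYN and SDR39U1 stayed within 2-fold in both lines.

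RNASE2 lies on the same chromosome at chr14:20955452-20956436, plus strand, with 2 exons, and codes for the eosinophil-derived neurotoxin. It was the only one of the 8 genes whose log2 fold change in THP-1 was above 0, with 4340 counts in DMSO (210.4 CPM) and 4246 in periplocin (239.6 CPM), which gives 0.20 (0.14 to 0.26). That is well within 2-fold. K562 had 3 and 1 counts. Its close relative RNASE3, the eosinophil cationic protein, had 59 and 45 counts in THP-1 (-0.16) and 0 in K562. Among its other coding neighbours, NDRG2 was higher in K562, from 307 to 2183 counts (2.80), and had 140 and 89 in THP-1 (-0.42). METTL17 stayed within 2-fold in both lines, and RNASE1 and RNASE6 are given further below. Of the 50-base stretches of the RNASE2 transcript, 3.26% are also found in another gene, RNASE3 first among them, so reads that could be divided between the relatives come from a small part of it.

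The upstream sequences of CTSG and RNASE2 are shown as the member of this pair that fell and the member that did not. Both are the 250 bases before the RefSeq start on GRCh38.p14, CTSG on the minus strand at chr14:24576251-24576500 and RNASE2 on the plus strand at chr14:20955237-20955486, with capitals as above.
CTSG: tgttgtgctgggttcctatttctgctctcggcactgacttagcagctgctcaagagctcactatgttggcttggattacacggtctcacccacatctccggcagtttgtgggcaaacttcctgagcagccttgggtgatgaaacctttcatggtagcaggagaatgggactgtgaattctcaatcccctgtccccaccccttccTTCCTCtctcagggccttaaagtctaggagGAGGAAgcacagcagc
RNASE2: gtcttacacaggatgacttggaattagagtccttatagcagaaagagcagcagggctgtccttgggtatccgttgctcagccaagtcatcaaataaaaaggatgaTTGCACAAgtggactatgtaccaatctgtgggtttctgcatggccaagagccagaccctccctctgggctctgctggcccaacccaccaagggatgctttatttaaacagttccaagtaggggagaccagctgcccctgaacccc
CTSG has 2 PU.1-type matches, beginning 46 bases before the start, read on the opposite strand to the gene, and 16 bases before it, read on the strand of the gene, and no C/EBP-type match in these letters. RNASE2 has 1 C/EBP-type match, read on the opposite strand, 145 bases before the start, and no PU.1-type match.

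MPO codes for myeloperoxidase, the enzyme that turns hydrogen peroxide into hypochlorous acid and the usual marker of the granulocytic line in leukemia diagnosis. It lies on chromosome 17 at chr17:58269856-58280935, minus strand, with 12 exons. THP-1 had 43 counts in DMSO (2.09 CPM) and 14 in periplocin (0.790 CPM), and the log2 fold change was -1.38, with an interval that reaches short of 2-fold (-2.37 to -0.49). Both K562 libraries had 0 counts, which allows up to 0.183 and 0.181 CPM by the floor of 3 counts. The gene thus stood far below the proteases of the same granule. In counts per kilobase of the longest annotated coding transcript, scaled to the same sum in each library as CPM, THP-1 DMSO had 1.76 for MPO against 1686 for AZU1, 1160.0 for ELANE, 1104 for PRTN3, 927 for CTSG, 759 for RNASE2, 342 for LYZ and 223 for MS4A3. Of the genes around MPO, its relatives EPX and LPO had at most 1 and 89 counts in THP-1, and TSPOAP1 was lower in both lines, at 225 and 71 counts in THP-1 (-1.43) and 28 and 11 in K562 (-1.36).

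LYZ codes for lysozyme, which monocytes and macrophages secrete throughout their life, and lies on chromosome 12 at chr12:69348341-69354234, plus strand, with 4 exons. Per length it had the highest level of the 8 genes in K562 DMSO, 79.7 on the scale just given against 35.1 for MS4A3. K562 had 752 counts in DMSO (45.9 CPM) and 1062 in periplocin (64.1 CPM), a log2 fold change of 0.47 (0.34 to 0.61). THP-1 had 3962 counts in DMSO (192 CPM) and 2752 in periplocin (155 CPM), a log2 fold change of -0.30 (-0.37 to -0.22). THP-1 had the higher level in both conditions, and the levels of the lines were closer in periplocin. Of its 50-base stretches, 9.79% are also found in other genes. An antisense gene, AC020656.1, overlaps LYZ over 733 bp and is not used here. No strand-specific step is named in the protocol, so reads of the overlap cannot be told apart.

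MS4A3 codes for a protein with 4 membrane spans, also called HTm4, that marks granulocyte and monocyte progenitors and basophils. It lies on chromosome 11 at chr11:60056587-60071128, plus strand, with 7 exons in its longest coding transcript. It had 2721 counts in THP-1 DMSO (132 CPM) and 124 in periplocin (7.00 CPM), and 349 counts in K562 DMSO (21.3 CPM) and 91 in periplocin (5.49 CPM). It was thus lower in periplocin in both lines, and the periplocin libraries were the 2 lowest of the 4. The log2 fold change was -4.22 in THP-1 (-4.50 to -3.97), the 65th lowest among 13367 genes, and -1.96 in K562 (-2.31 to -1.63), the 491st lowest among 12736. The THP-1 change minus the K562 change was -2.26 (-2.68 to -1.84). In THP-1 there were 3.32 ELANE counts for each MS4A3 count in DMSO and 56.1 in periplocin.

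MS4A3 sits in a cluster of related MS4A genes, most of which code for membrane proteins of blood cells, and several of them were lower in THP-1 as well. Of 17 relatives, 8 had enough counts in THP-1, and of these 5 were lower and 2 higher, with a median of -1.53. Of all genes in THP-1, 12.3% were lower and 9.61% higher. The 2 higher relatives were TMEM176A, from 6 to 16 counts, and TMEM176B, from 53 to 134. Both were listed by family and not by position in the cluster. MS4A6A went from 9682 to 2076 counts (-1.99), MS4A4E from 1107 to 251 (-1.91), MS4A7 from 2772 to 1067 (-1.15) and MS4A4A from 547 to 57 (-3.03). MS4A14 went from 763 to 1217 (0.90). In K562, where 2 relatives had enough counts, MS4A4E had 91 and 117 counts (0.34) and MS4A2, the beta chain of the IgE receptor and next to MS4A3, had 2 and 24 counts. MS4A2 moved in the opposite direction in THP-1, with 17 and 2 counts. Of the 8 basophil and mast cell markers, MS4A2 among them, CPA3, TPSAB1 and TPSB2 had 0 counts in every library, and the summed level of the list was 15.6 CPM in THP-1 DMSO and 4.51 in periplocin, and 4.15 and 7.00 in K562. KIT, a receptor also of early progenitors, alone gave 14.1 and 4.18 CPM of the THP-1 sums and 2.87 and 3.80 of those in K562. The part of such cells in the MS4A3 levels was not tested.

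The upstream sequence of MS4A3 is shown because it is the member that fell most and in both lines. It is the 250 bases before the RefSeq start on GRCh38.p14 at chr11:60056415-60056664, plus strand, with capitals as above.
MS4A3: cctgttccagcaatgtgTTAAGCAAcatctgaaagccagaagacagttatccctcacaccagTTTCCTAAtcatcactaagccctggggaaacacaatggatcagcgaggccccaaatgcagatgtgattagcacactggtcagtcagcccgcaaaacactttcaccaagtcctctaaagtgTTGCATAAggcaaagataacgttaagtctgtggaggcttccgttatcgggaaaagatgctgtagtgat
It has 3 C/EBP-type matches, beginning 233, 188 and 68 bases before the start, and no PU.1-type match in these letters. RUNX-type matches (TGNGGT) were searched on both strands and not found in this window in any of the 5 sequences shown, while 37.7% of all promoters of this length hold one. MYB-type matches (AACNG) were found in all 5 and in 70.6% of all promoters. In MS4A3 1 MYB-type match overlaps the C/EBP-type match at 188 bases.

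**Figure D3:**
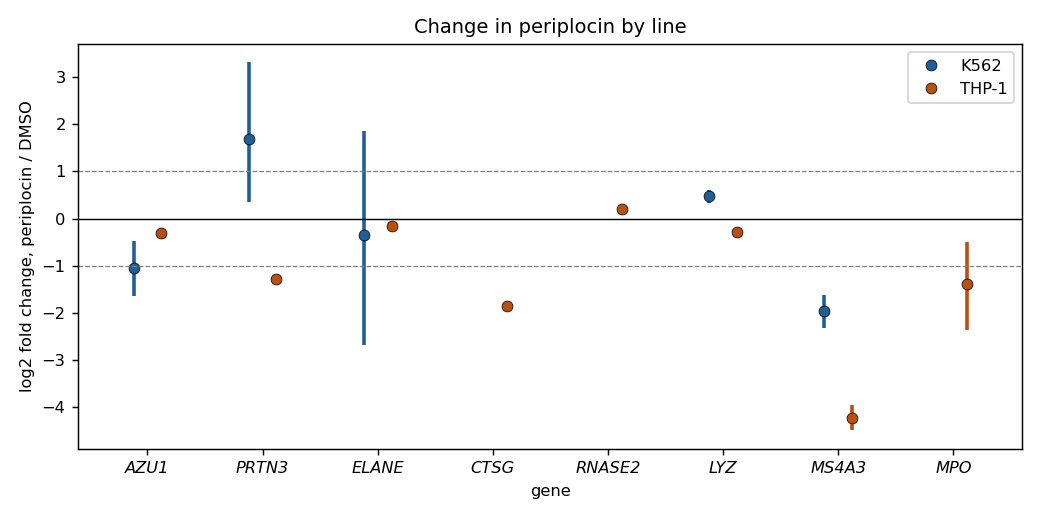
Log2 fold change of periplocin over DMSO for each of the 8 genes in K562 and THP-1, with the 95% counting interval as a vertical line and dashed lines at 2-fold. CTSG, RNASE2 and MPO have no K562 point because both libraries had 3 counts or fewer, ELANE in K562 had under 10 counts, and the largest change is that of MS4A3 in THP-1, at -4.22.

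The other azurophil granule genes with enough counts moved in both directions. Of 10 further azurophil granule genes, 5 had enough counts in each line. In K562, 1 was lower and 0 higher, beside 13.0% and 10.5% of all genes. In THP-1, 0 were lower and 2 higher, beside 12.3% and 9.61%. These counts rest on few genes. PRSS57, a protease of the same granule, was lower in K562, from 250 to 45 counts (-2.50), and had 13 and 10 in THP-1. In THP-1 CD63 and CD68, membrane proteins of granules and lysosomes, were higher, from 4243 to 9883 counts (1.45) and from 3069 to 5957 (1.19). Serglycin, the proteoglycan that holds proteases in the granule and is encoded by SRGN, had 2525 CPM in THP-1 DMSO and 1733 in periplocin (-0.53), and 2.26 and 1.45 in K562. BPI had at most 4 counts, and the alpha-defensins DEFA1, DEFA1B, DEFA3 and DEFA4 had 0 counts in all 4 libraries. A fall of these genes could therefore not be seen. The list median was 0.07 in K562 and 0.43 in THP-1.

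Genes of the later, specific and gelatinase granules were also counted. Of 17, 3 had enough counts in K562 and 10 in THP-1, with CYBB higher in both, LCN2 also higher in THP-1, 0 lower in either line, and medians of 0.41 and 0.62. The called shares, 1 of 3 and 2 of 10, rest on few genes and stand beside the 10.5% and 9.61% of all genes given above. CYBB, the catalytic subunit of the phagocyte oxidase, had 90 and 249 counts in K562 (1.44) and 321 and 837 in THP-1 (1.61). LTF, CAMP and MMP8, textbook contents of these granules, had at most 4 counts in any library.

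In a list of protease inhibitors, SERPINB10 and SERPINB8 were lower in THP-1, from 1472 to 263 counts (-2.25) and from 3665 to 1330 (-1.23). Alpha-2-macroglobulin, A2M, was higher, from 73 to 289 counts (2.21). Whether each listed inhibitor acts on the granule proteases of this report was not examined. Of 11 inhibitors, 8 had enough counts in THP-1, with 3 lower and 1 higher. CST7, with 33 and 9 counts, was the other lower one. In K562, 4 had enough counts, where CST7 was lower, with 11 and 0 counts, and 0 were higher. The shares of all genes were 12.3% lower and 9.61% higher in THP-1, and 13.0% and 10.5% in K562, so the inhibitor counts rest on few genes. SERPINB1, the main cytosolic inhibitor of elastase, proteinase 3 and cathepsin G, had 1186 and 732 counts in THP-1 (-0.47) and 2285 and 1691 in K562 (-0.46). The medians were -0.29 in THP-1 and -0.31 in K562.

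Of 13 genes that process and sort granule proteins, 1 was lower in THP-1 and 2 in K562, and 0 were higher. Over all genes, 12.3% were lower and 9.61% higher in THP-1, and 13.0% and 10.5% in K562. The counts of this list thus lie near the shares of all genes. All 13 listed genes had enough counts in both lines, and the medians were -0.08 in THP-1 and -0.11 in K562. CTSC, the dipeptidyl peptidase that activates the granule serine proteases and counts in both lists, had 3475 and 3984 counts in THP-1 (0.43) and 4542 and 4854 in K562 (0.07). In THP-1 only G6PC3 was lower, from 604 to 255 counts (-1.01, and -0.98 with DESeq2 size factors, short of 2-fold). In K562 RAB27A, which guides granule release, was lower, from 2164 to 798 (-1.47), as was HAX1, from 3219 to 1461 (-1.17). Both G6PC3 and HAX1 are genes of severe congenital neutropenia.

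More of the transcription factors known from granule gene promoters were lower in K562 than in THP-1, by counts of genes that were not tested against each other. In K562, 8 of 12 with enough counts were lower and 0 higher, with a median of -1.25. Of all genes in K562, 13.0% were lower and 10.5% higher. LEF1 went from 881 to 220 counts (-2.03), RUNX1 from 2855 to 770 (-1.92), CEBPA from 23 to 7 (-1.72), MYB from 8071 to 2592 (-1.67) and CEBPB from 1429 to 525 (-1.47). In THP-1, 2 of 14 were lower and 2 higher, with a median of -0.02, near the 12.3% lower and 9.61% higher of all genes. LEF1 went from 110 to 29 counts (-1.69) and IRF8, which favours the monocytic over the granulocytic line, from 12161 to 4323 (-1.26), while KLF4 and RARA were higher, at 1.05 and 1.07. The other 10 lay within 2-fold, MYB at the edge of it with 12669 and 5441 counts (-0.99), which is past it when scaled to total counts (from 614 to 307 CPM). Of the rest, chosen after their values were seen, CEBPA had 6492 and 4798 counts in THP-1 (-0.21), SPI1 3702 and 4377 (0.47), GFI1 7610 and 5360 (-0.28) and RUNX1 5217 and 4468 (0.01).

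**Figure D4:**
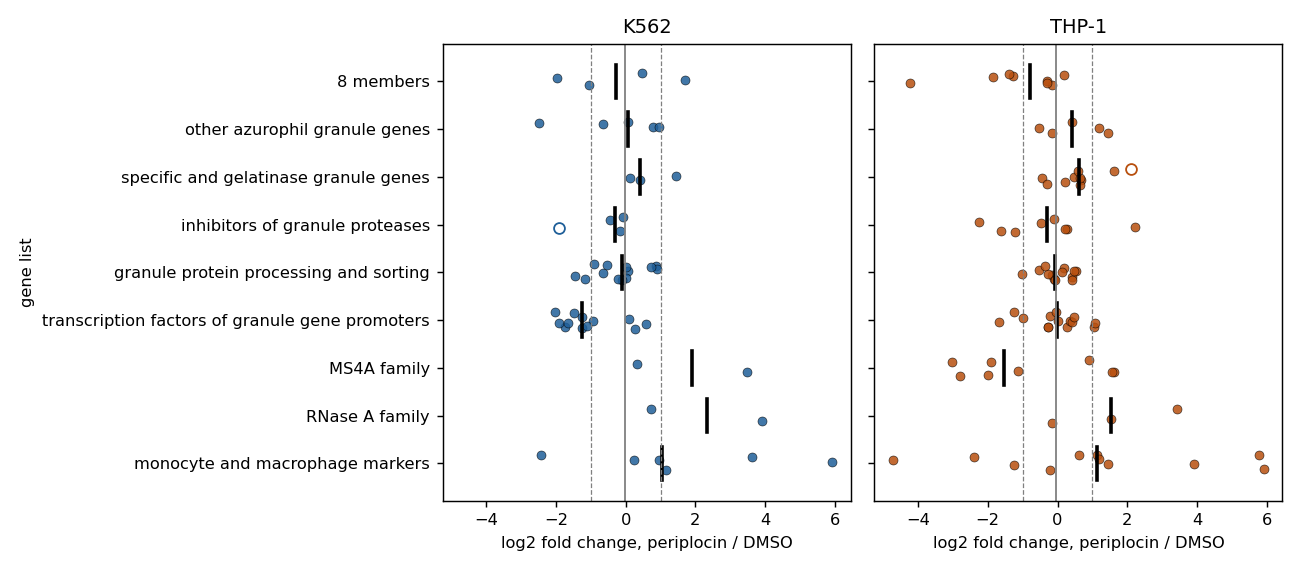
Log2 fold change of periplocin over DMSO for the members and for 8 gene lists, in K562 on the left and THP-1 on the right, for genes with at least 10 counts in either library. Each point is 1 gene, an open point is a gene with 0 counts in 1 library drawn at its bound, black bars are list medians, the grey line is the median of all genes and dashed lines mark 2-fold; the transcription factors have a median of -1.25 in K562 and -0.02 in THP-1.

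Markers of other myeloid stages moved beside these genes. The summed level of 16 monocyte and macrophage markers was 496 CPM in THP-1 DMSO and 912 in periplocin. Of 11 measured genes there, 6 were higher and 3 lower. In K562 the sum was 22.0 and 46.0 CPM, with 3 of 6 higher and 1 lower, FCGR1A. The shares over all genes were 9.61% higher and 12.3% lower in THP-1, and 10.5% and 13.0% in K562. These marker counts rest on few genes. CD68, also in the azurophil list, gave 149 and 336 CPM of the THP-1 sums and 17.6 and 34.4 of those in K562. FCGR1A gave 83.6 and 226 CPM in THP-1, while CSF1R had 150 and 129. CD14 went from 8 to 382 counts in THP-1 and CD86 from 8 to 416. FCGR1A, a receptor for IgG, went from 1724 to 4006 counts in THP-1 (1.45) and VCAN from 490 to 176 (-1.25). The summed level of 10 late neutrophil markers was 145 CPM in THP-1 DMSO and 74.3 in periplocin. Of 5 measured genes, 3 were lower and 1 higher, FPR1, from 1 to 27 counts, beside 12.3% and 9.61% of all genes. CSF3R, the receptor of granulocyte colony-stimulating factor, alone gave 112 and 42.8 CPM of these sums. It had 2315 and 758 counts in THP-1 (-1.38) and 84 and 12 in K562 (-2.82). CXCR2 had 26.2 and 29.2 CPM in THP-1 (0.17). The lists share S100A8 and S100A9, which were lower in THP-1, from 25 to 4 and from 96 to 3 counts. Both genes are thus counted as lower in each list. The defining markers FCN1 and CD163 had at most 4 counts and FCGR3B, LTF and CAMP at most 4. The 7 erythroid markers of K562 went from 2461 to 9069 CPM, with 6 higher. Summed levels of 6 lymphocyte markers stayed between 3.95 and 8.73 CPM. The part of maturation or of a mixture of cells in the granule gene levels was not tested.

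The genes whose pattern over the 4 libraries was nearest to a member were found among 10910 other genes with at least 10 CPM in some library, by the distance between log2 levels centred over the 4 libraries. With 4 points this is a description only. CTSG was nearest to P2RY2, MS4A6A and PLD4, with distances of 0.14, 0.36 and 0.56. AZU1 was nearest to CEBPA at 0.19, followed by SYK and APP. PRTN3 was nearest to PRSS12, CCR2 and MS4A7, and ELANE to ADGRL2, TIMP3 and NID1. RNASE2 was nearest to FLI1, PARVG and MCOLN2. LYZ was nearest to BTBD7, TPD52 and MRPL44, at 0.06 to 0.17. MS4A3 stood further from any other gene, with SIGLEC6 at 0.96, TERT at 1.21 and FNDC10 at 1.31. MPO did not reach 10 CPM and was left out.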

How the data were processed

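RNA of 4 samples, K562 and THP-1 cells in DMSO or periplocin, was measured as 1 poly-A library each. The authors deposited 1 table of expected counts per gene, estimated and therefore not always whole (87.4% to 88.3% exactly whole as written), neither normalized nor pooled. The submitters' processing notes name HISAT2, StringTie 1.3.1 and hg38 without their roles. The annotation was not given in the sources used here. Counts were rounded to whole numbers. Symbols were matched by Ensembl identifier for 20310 genes. Coordinates, transcripts and neighbours came from GENCODE release 29 on GRCh38, and upstream sequences from a table of RefSeq promoters on GRCh38.p14, in which 5 of the 8 members were matched.

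Fold changes used edgeR 4.0.16 in R 4.3.3, with TMM factors over each pair of libraries and a prior count of 0.125. Intervals of changes are exact binomial (Clopper-Pearson) given the summed count of the pair, those of differences between changes use the delta method, those of shares are Clopper-Pearson and those of levels exact Poisson, all at 95%. With 1 library per condition no test was run. Counts of 3 or fewer were the floor. The calculation was tested on simulated data with known changes. Alternatives were DESeq2 1.42.0 size factors, total counts, TMM over 4 libraries, a prior count of 2, unrounded counts, other filters and a higher fold. Figures used Python 3.11.15 with matplotlib 3.10.9.

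The members, the 19 lists and the motifs were chosen with earlier results of these data known. Genes named are the members, up to 5 genes per list past 2-fold with at least 10 CPM, and the 3 genes nearest in pattern. Neighbours were taken from the 3 nearest coding genes on each side with at least 10 CPM. Not every such neighbour is named, and those of LYZ are left out. Other genes named were chosen after their values were seen.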

Additional observations from a re-analysis of the deposited data

Results flagged for a closer look

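The change of PRTN3 differed between the lines, upward in K562, from 6 to 20 counts, and downward in THP-1, from 8669 to 3037. The log2 fold change in THP-1 minus that in K562 was -2.97 (95% counting interval -4.29 to -1.66). LYZ also moved in opposite directions, upward in K562 and downward in THP-1, by a difference of -0.77 (-0.92 to -0.61). Each line has 1 library per condition, so neither difference was tested against a spread between replicates.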

How the results depend on the processing

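The log2 fold changes of the members kept their sign under the other scalings, the prior count of 2 and unrounded counts, with ranges of -1.05 to -1.01 for AZU1 and 1.44 to 1.70 for PRTN3 in K562, and -1.29 to -1.25 for PRTN3 and -4.24 to -4.19 for MS4A3 in THP-1. With 1 count in the pair as the filter, 2535 genes were lower and 2643 higher in K562 by 2-fold, against 1650 and 1342 by the usual filter, and the THP-1 numbers were 2499 and 2299 against 1650 and 1284. By that filter 3 members were lower in K562, RNASE2 with 3 and 1 counts being the added one. With at least 5 CPM in 1 library, 1042 genes were lower and 827 higher in K562, against 978 and 732 in THP-1, while 1 member was lower and 0 higher in K562, since AZU1 and PRTN3 lie below that level, and 3 were lower in THP-1, where MPO lies below it. With a log2 fold change of at least 2, 461 genes were lower and 413 higher in K562, against 423 and 424 in THP-1, and the members 0 lower and 0 higher in K562 and 1 lower in THP-1, which was MS4A3. At these totals no change of ELANE, CTSG, MPO or RNASE2 was detectable in K562, where each had 5 counts or fewer. The scaling of the listed genes, examined after seeing the data, also ended the THP-1 call of G6PC3 (-0.98 with DESeq2 size factors) and the K562 call of CD3E, a lymphocyte marker, with total counts. No paired analysis was possible because the groups compared share fewer than 2 replicate numbers, and a fit with the line as a block, which takes the lines as replicates of 1 effect, was not run. With 1 library per condition no replicate could be left out.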

Other observations

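Some relatives of the members that are not granule genes of neutrophils, and the eosinophil granule gene PRG2, were higher in periplocin. RNASE1, the pancreatic-type ribonuclease that endothelium secretes, was higher in K562, with 106 counts in DMSO and 1639 in periplocin (3.92 on the log2 scale), and had 2 counts in both THP-1 libraries. RNASE6, a ribonuclease of monocytes, went from 23 to 213 counts in THP-1 (3.43) and was at 2 and 0 in K562. Of 12 further RNase A family genes, 2 had enough counts in K562, with 1 higher and 0 lower (median 2.32), and 3 in THP-1, with ANG and RNASE6 higher and 0 lower (median 1.54). PRG2, the major basic protein of eosinophils, was higher in both lines, with 28 and 109 counts in K562 (1.93) and 3 and 17 in THP-1, while the other 4 eosinophil granule genes had at most 59 counts. LYG1, a goose-type lysozyme, was also higher in both, with 14 and 49 counts in K562 (1.77) and 5 and 41 in THP-1 (3.23). Of 12 other peroxidase and lysozyme-like genes, only LYG1 had enough counts in K562, and LYG1 and LPO (-0.34) in THP-1. Of all genes, 10.5% were higher in K562 and 9.61% in THP-1, so these shares rest on few genes. Of 12 granzyme and mast cell protease genes, 3 had enough counts in K562 and 2 in THP-1. GZMM, with 17 and 4 counts, and PRSS57 were lower in K562, and 0 were lower in THP-1. Of all genes, 13.0% were lower in K562 and 12.3% in THP-1.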
